A study of Rattus norvegicus with 4 samples.

Results

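The expression of 9 genes of thyroid hormone signaling was examined in the hippocampus of newborn Wistar rats whose mothers had received bisphenol A (BPA), an endocrine-disrupting chemical used in plastics and known as an antagonist of the thyroid hormone receptor, or vehicle. The genes were taken by name as the rows whose symbol was Thra, Thrb, Ncor1, Dio2, Dio3, Slco1c1, Crym, Hr or Klf9, and each matched 1 row, 9 of the 17445 rows in the files. Pregnant rats, 10 weeks old by the series record, were dosed daily by gavage from gestation day 1 until birth with BPA at 5000 µg/kg body weight or with an equal volume of vehicle (ethanol diluted in corn oil), and the hippocampi of their pups were taken on postnatal day 1. The 4 groups were control males (vehicle), BPA males, control females (vehicle) and BPA females. RNA-seq was made from 1 library per group, each a pool of 3 hippocampi, so that the spread between pups or litters cannot be seen within a group.

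Thyroid hormone reaches the brain mainly as thyroxine, which crosses the blood-brain barrier through carriers such as OATP1C1 (gene Slco1c1) and is converted to the active hormone T3 by the deiodinase of Dio2. The deiodinase of Dio3 does the opposite and inactivates both hormones, and the T3 that remains binds nuclear receptors encoded by Thra and Thrb, which repress their target genes through corepressors such as NCoR1 when no hormone is bound and activate them when it is. In the perinatal rodent brain this system is known for its part in neuronal migration, differentiation and myelination, and Klf9 and Hr are among its best known direct targets.

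The 9 genes differed widely in level, given here in FPKM (fragments scaled to the length of the gene model and to the size of the library), a unit per length that allows genes to be compared. Thra, the main receptor gene of the fetal and newborn brain, was at 540 FPKM in control males, 502 in BPA males, 480 in control females and 469.8 in BPA females, and its mean was higher than that of 99.3% of the rows with a gene ID. Crym, which encodes mu-crystallin, an NADPH-dependent protein that binds T3 in the cytosol, followed at 458, 391, 389.7 and 374 FPKM in the same order of libraries. Slco1c1 and Ncor1 had means of 38.6 and 34.6 FPKM, and the remaining 5 genes, Thrb, Dio2, Klf9, Dio3 and Hr, had means of 4.51, 4.42, 3.98, 3.51 and 3.27 FPKM. Neighbors in this order were separated by more than their spread over the 4 libraries between Thra and Crym, between Crym and Slco1c1 and between Ncor1 and Thrb, while the ranges of Slco1c1 and Ncor1 overlapped and so did those of each pair of neighbors among the 5 low genes.

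**Figure D1:**
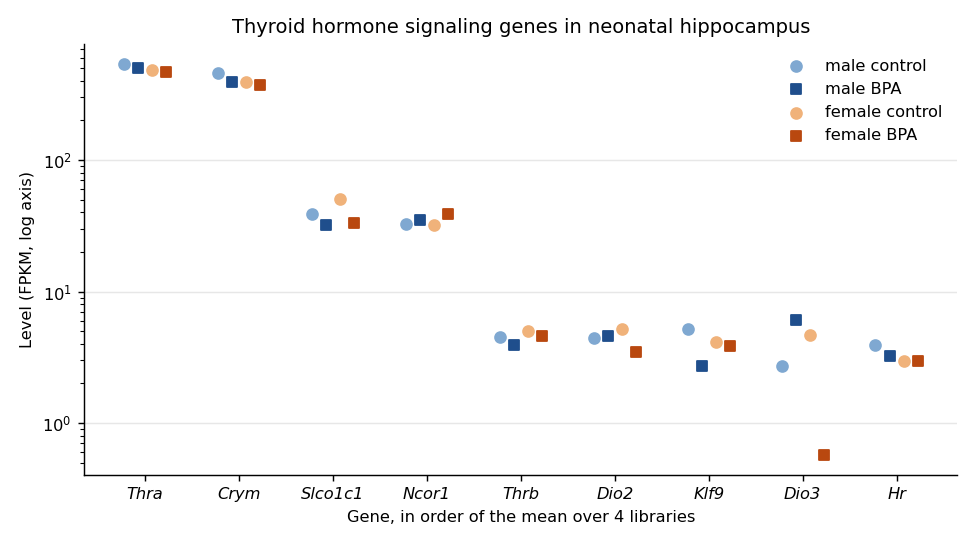
Level of each of the 9 genes in FPKM (log axis) in the 4 libraries, each point 1 library of 3 pooled hippocampi, with circles for control and squares for BPA. Thra and Crym lie at or above 374 FPKM in every library, and the lowest point is Dio3 in BPA females, at 0.57 FPKM.

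The low values of the files fell on steps of whole fragments, which gave a depth of 8650000 to 8920000 fragments per library. A value could therefore be turned into the number of fragments behind it, from 9 for Dio3 in BPA females to 10865 for Thra in control males. Intervals given for levels and ratios below are 95% intervals from these fragments (exact Poisson for levels, a normal approximation on the log scale for ratios). They cover counting error only and leave out the differences between pups.

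Markers of excitatory hippocampal neurons were seen in all 4 libraries, where the 7 of 8 that were listed summed to 449 to 501 FPKM. No other brain region was compared, so the hippocampal identity of the pools was not tested. Markers of tissue that borders the hippocampus differed in level between the pools. The 7 choroid plexus markers, of which 2 were at 1 FPKM or more in every library, summed to 266 FPKM in control males, 706 in BPA males, 9.16 in control females and 46.1 in BPA females, and the 6 markers of meninges and vessel wall to 49.97, 43.6, 108 and 46.1 FPKM. Without the marker Ttr the choroid plexus sums were 9.72, 16.7, 5.20 and 3.73 FPKM in the same order of libraries. Control females thus stood apart for meningeal markers. The male pools were higher for choroid plexus markers, by far less without Ttr. In pooled tissue, fewer cells of a type and less RNA per cell cannot be told apart.

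**Figure D2:**
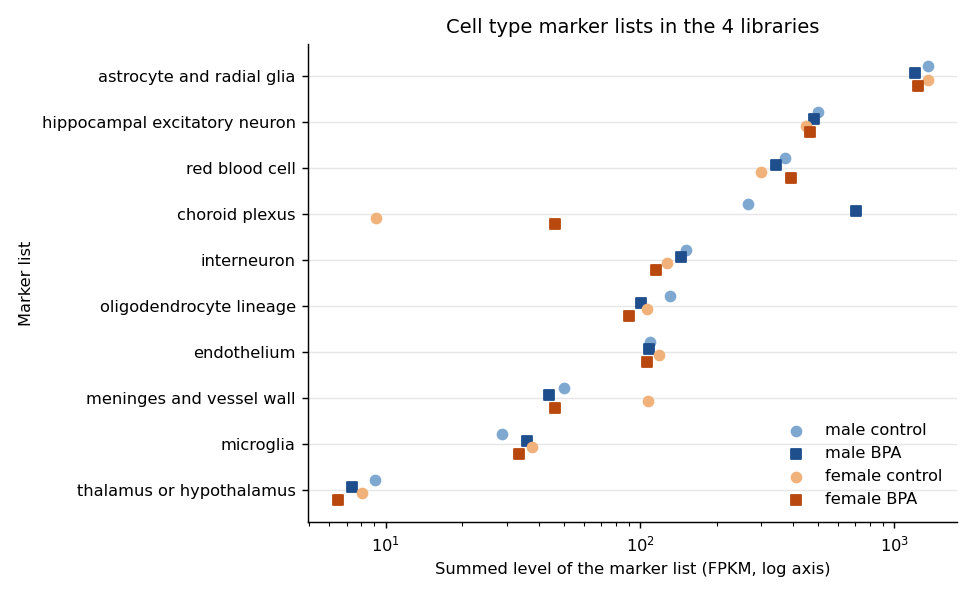
Summed level in FPKM (log axis) of 10 lists of cell type markers in the 4 libraries. The choroid plexus list runs from 9.16 FPKM in control females to 706 in BPA males, and the list of meninges and vessel wall is highest in control females, at 108 FPKM.

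Dio3 and Klf9 had the highest coefficients of variation over the 4 libraries among the 9 genes (68.5% and 25.8%), and the sequences just before their starts are shown because the values described next turn on these 2 genes. RefSeq promoter sequences were found for 6 of the 9 genes. The 250 bases before the start site are given 5′ to 3′ on the strand of the gene, from the rat assembly GRCr8, which is not the rn6 build of the study. For Dio3 they are chr6:135106822-135107071 on the + strand and for Klf9 chr1:230126396-230126645 on the + strand. Capitals mark the letters TATAAA and likewise CCAAT and GGGCGG, each on either strand.
Dio3: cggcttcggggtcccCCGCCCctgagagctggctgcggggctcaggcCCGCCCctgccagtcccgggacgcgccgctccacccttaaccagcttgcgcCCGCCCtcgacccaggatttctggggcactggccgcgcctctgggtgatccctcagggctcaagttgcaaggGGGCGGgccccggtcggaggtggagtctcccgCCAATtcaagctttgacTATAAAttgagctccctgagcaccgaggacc
Klf9: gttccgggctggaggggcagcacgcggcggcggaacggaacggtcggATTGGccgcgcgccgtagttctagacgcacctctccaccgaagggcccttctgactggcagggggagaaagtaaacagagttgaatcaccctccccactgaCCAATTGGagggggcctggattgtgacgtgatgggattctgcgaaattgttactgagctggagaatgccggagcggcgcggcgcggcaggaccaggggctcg
The Dio3 sequence, with a GC content of 68.8%, held 1 TATAAA that begins 31 bases before the start, 1 CCAAT that begins 48 bases before it and 4 copies of GGGCGG. The Klf9 sequence, with a GC content of 63.6%, held 3 matches to CCAAT, 2 of which overlap on opposite strands, and neither TATAAA nor GGGCGG. Over 33469 rat promoters of the same length, 12.9% held TATAAA, 34.0% CCAAT and 30.5% GGGCGG on either strand. The half-site letters AGGTCA, bound by many nuclear receptors, were in none of the windows of the 6 genes and in 14.1% of all promoters. A match or its absence describes these letters in this window and says nothing of a factor.

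Dio3, which lies in an imprinted gene cluster and encodes the inactivating deiodinase, was at 2.70 FPKM in control males, 6.10 in BPA males, 4.68 in control females and 0.57 in BPA females. BPA was on the higher side in males and on the lower side in females, and the BPA and the control libraries overlapped. These levels stood on 43 (interval 31.1 to 57.9), 97 (78.6 to 118), 73 (57.2 to 91.8) and 9 (4.10 to 17.1) fragments. The ratio of BPA to control was 2.26 in males (1.58 to 3.24) and 0.122 in females (0.0609 to 0.244), or 8.21-fold lower in BPA females than in control females. On log2(FPKM + 1), the scale of all log2 differences here, which understates the change of low genes, the difference was 0.94 in males and -1.86 in females. A larger absolute difference was seen in 0.314% of the rows with a gene ID in males and in 0.12% in females. With 1 library on each side this is a description of 4 pools, and the difference between the sexes could not be tested. A change of at least 0.5 in each sex in opposite directions was seen in 1 of the 9 genes, Dio3, and in 1.13% of all 13542 rows tested, 0.193% of the rows with a gene ID and 0.427% of the gene ID rows with a mean of 1 to 10 FPKM.

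Of the marker lists, the sum of the 5 microglia markers went in the directions of Dio3, by far less, at 28.6, 35.8, 37.7 and 33.4 FPKM in control males, BPA males, control females and BPA females. The choroid plexus sum was higher in the BPA library of both sexes, but in females through Ttr: the other 6 markers summed to 9.72, 16.7, 5.20 and 3.73 FPKM in the same order, higher in BPA males and lower in BPA females, as Dio3 was. These directions were seen in 4 of the 7 choroid plexus markers (Kcnj13, Folr1, Clic6 and Kl), 3 of the 5 of microglia and 2 of the 6 of meninges and vessel wall (Igf2 and Slc22a6). They were also seen in 2 of the 8 markers of endothelium and 2 of the 7 of excitatory neurons. The astrocyte, interneuron, oligodendrocyte and thalamus or hypothalamus lists had 1 such marker each, and the red blood cell list 0. Clic6 and Kl were at 0.26 FPKM or less in both female pools. Kcnj13, which encodes an inward rectifier potassium channel, was at 0.56, 1.13, 1.72 and 0.09 FPKM, and Folr1, which encodes a folate receptor, at 4.75, 6.63, 2.18 and 1.69. Single markers here and below were picked after their values were seen. The part of these cells in the Dio3 values was not tested. Among 10856 other rows with a gene ID and a mean of at least 1 FPKM, those whose pattern over the 4 libraries was closest to Dio3 were Kpna2, which encodes an importin of nuclear protein import, Pdzd3 and Ube2t, which encodes a ubiquitin-conjugating enzyme of DNA repair. Their root mean square differences from Dio3 in centered log2 values were 0.22, 0.32 and 0.37. Kpna2 was at 16.1, 27.9, 17.5 and 6.63 FPKM in the same order. With 4 libraries a likeness of this kind is only a description.

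Dio2, which encodes the activating deiodinase and is known from astrocytes and tanycytes, varied less. It was at 4.44 FPKM in control males, 4.56 in BPA males, 5.20 in control females and 3.48 in BPA females, on 190 to 281 fragments. The counting interval of the male ratio of 1.03 included 1 (0.862 to 1.22), and the female BPA library was the lowest of the 4, with a ratio of 0.669 (0.557 to 0.804) to its control. The level of Dio3 relative to Dio2 was 0.608 in control males, 1.34 in BPA males, 0.90 in control females and 0.164 in BPA females. The counting interval of this ratio lay above 1 in BPA males (1.06 to 1.69), below 1 in control males (0.440 to 0.841) and BPA females (0.0839 to 0.320), and included 1 in control females (0.696 to 1.16). Of the 8 markers of astrocytes and radial glia, 8 were lower in BPA females and 7 in BPA males than in their controls, with median differences of -0.31 and -0.18 (quantile normalization turned Aldoc in males, to 0.0051). Gja1, which encodes connexin 43, was at 34.4 FPKM in control females and 17.8 in BPA females, and Aqp4, the aquaporin of astrocyte endfeet, at 37.7 and 27.8. The part of these cells in the Dio2 values was not tested.

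**Figure D3:**
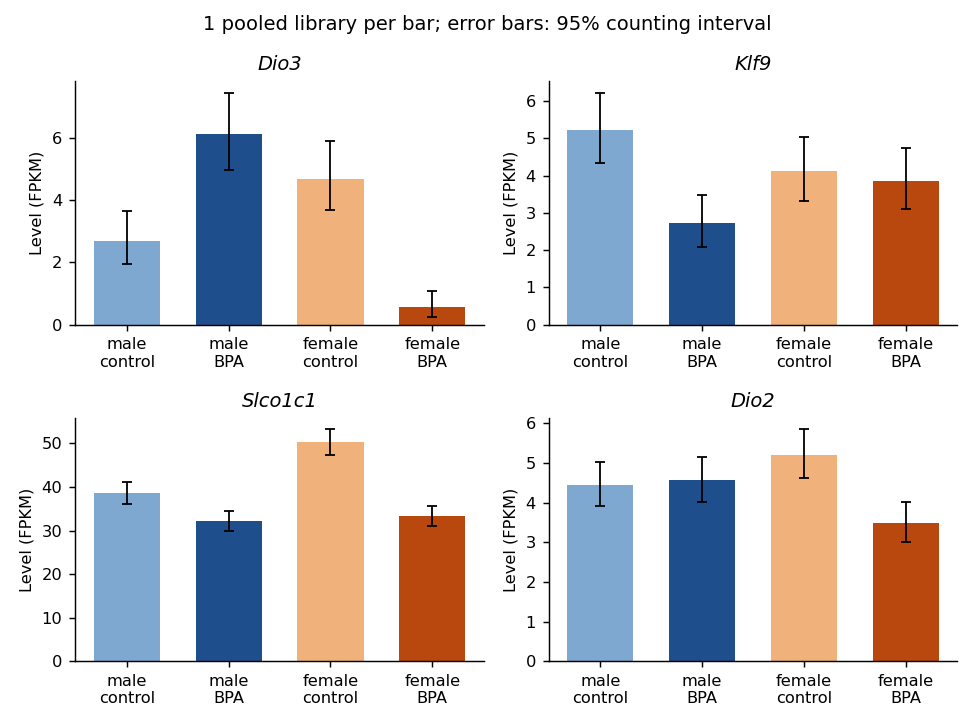
Levels in FPKM of Dio3, Klf9, Slco1c1 and Dio2 in the 4 libraries, 1 pooled library per bar, with 95% counting intervals that leave out differences between pups. Dio3 is higher in BPA males (6.10) than in control males (2.70) and lower in BPA females (0.57) than in control females (4.68), and Slco1c1 is highest in control females (50.3).

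Slco1c1, whose product carries thyroxine and which is known from brain endothelium and choroid plexus, was lower in both BPA pools. It was at 38.5 FPKM in control males, 32.1 in BPA males, 50.3 in control females and 33.3 in BPA females, so that both BPA libraries lay below both control libraries. The ratio of BPA to control was 0.833 (0.757 to 0.917) in males and 0.663 (0.605 to 0.726) in females. Among the cell type markers, the 8 of endothelium summed to 109.7, 108, 119 and 106 FPKM in control males, BPA males, control females and BPA females, with Cldn5, a tight junction gene of the barrier, at 65.8, 63.5, 68.4 and 61.0 FPKM, making up most of that sum. Over the 8 markers the median difference was -0.02 in males and -0.28 in females, where 7 of 8 were lower (6 after quantile normalization, which turned Abcb1a to 0.12) and 1 was past 0.5, Ocln, another tight junction gene, at 3.08 FPKM in control females and 1.87 in BPA females. Pecam1, Tek and Flt1 were at 0.72, 0.72 and 0.75 of their control in females, and Esam, Cldn5 and Abcb1a at 0.85, 0.89 and 0.98. Slc2a1 was higher in BPA females, at 1.16 of its control. The markers of meninges and vessel wall were highest in control females, as Slco1c1 was, and 5 of the 6 were lower by at least 0.5 in BPA females than in control females, among them Col1a1, a collagen of fibroblasts (28.3 and 10.8 FPKM), and Igf2 (29.6 and 8.16 FPKM). After quantile normalization 1 of these 5, Lum, was just inside the threshold, at -0.497. The choroid plexus sum was higher in both BPA pools, and without Ttr it was lower in BPA females (3.73 FPKM) than in control females (5.20). Of the 8 markers of astrocytes and radial glia, 7 were lower in both BPA pools and 1, Aldh1l1, was higher in BPA males. Their median differences were -0.18 in males and -0.31 in females. The part of these cells in the Slco1c1 values was not tested.

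The differences of the receptor genes were smaller. Thrb, the receptor gene whose expression is known to rise later in brain development, was at 4.53 FPKM in control males, 3.94 in BPA males, 5.01 in control females and 4.56 in BPA females, and the counting intervals of its ratios included 1 in both sexes (0.724 to 1.04 and 0.765 to 1.08). The ratio of BPA to control was 0.929 (0.904 to 0.954) in males and 0.978 (0.950 to 1.01) in females for Thra. The female value depended on the normalization: the log2 difference of -0.03 became -0.19 after quantile normalization and -0.08 in TPM. Thra exceeded Thrb by 119-fold in control males, 127-fold in BPA males, 95.9-fold in control females and 103-fold in BPA females. The end of the Thra gene overlaps Nr1d1, a gene for a circadian repressor, in the RefSeq annotation, and no strand setting was found for the counting. Nr1d1 was at 30.1, 29.4, 27.9 and 26.1 FPKM, and Thra was 17.1 to 18.0 times higher. Without strand, reads from the shared stretch cannot be assigned to either gene.

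Ncor1, the corepressor of unliganded receptors, was at 32.8 FPKM in control males, 35.1 in BPA males, 32.0 in control females and 38.5 in BPA females. Both BPA libraries lay above both control libraries, with ratios of 1.07 (1.01 to 1.14) in males and 1.20 (1.13 to 1.28) in females. It was the single gene of the 9 with this order. Crym was lower in BPA by a ratio of 0.853 (0.817 to 0.889) in males and 0.960 (0.918 to 1.00) in females. The female log2 difference of Crym, -0.06, became -0.19 after quantile normalization and -0.11 in TPM. Its values in BPA males and control females were nearly equal, and the BPA and control ranges overlapped by this margin.

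Of the T3 target genes, Klf9, which encodes a zinc finger transcription factor, was at 5.22 FPKM in control males, 2.72 in BPA males, 4.12 in control females and 3.86 in BPA females. The male BPA pool was the lowest of the 4 and the male control pool the highest, with a ratio of 0.521 (0.385 to 0.705) on 64 and 123 fragments, and the interval of the female ratio of 0.937 included 1 (0.702 to 1.25). A larger absolute difference than that of Klf9 in males, -0.74 on log2(FPKM + 1), was seen in 0.858% of the rows with a gene ID. Among the rows closest to Klf9 in pattern were Slc10a4, a vesicular transporter gene, and Dleu7, with root mean square differences of 0.045 and 0.050. Hr, which encodes the Hairless corepressor, was at 3.89, 3.21, 2.99 and 2.97 FPKM in control males, BPA males, control females and BPA females. The intervals of its ratios included 1 in males (0.669 to 1.02) and in females (0.789 to 1.25).

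With a threshold of 0.5 on log2(FPKM + 1) in either direction, 1 gene was higher in the male BPA pool (Dio3) and 1 lower (Klf9). Among all 13508 rows of the male comparison 3.38% were higher and 3.88% lower by as much, and among the rows with a gene ID 1.35% and 2.11%, or 2.84% and 4.5% of those with a mean of 1 to 10 FPKM. In females 0 genes were higher and 2 lower (Dio3 and Slco1c1, with Dio2 at -0.47 just inside the threshold), against 3.25% and 6.86% of the 13550 rows, 1.16% and 4.99% of the rows with a gene ID, and 1.85% and 9.94% of those with a mean of 1 to 10 FPKM. Past 1 was 1 of the 9 genes in females, Dio3, where 2.32% of all rows and 0.671% of the rows with a gene ID were, and 0 in males, where 1.7% and 0.286% were. The median difference of the 9 genes was -0.16 in males and -0.08 in females, and that of all rows -0.0017 and -0.04. Below 0 were 6 of 9 in males and 8 of 9 in females. The sign agreed between the sexes in 7 of 9, 6 of them below 0 and Ncor1 above it. The shares of all rows with these signs are not given here. After quantile normalization Klf9 (0.056) and Hr (0.13) were above 0 in females and still below 0 in males, so that their signs no longer agreed.

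**Figure D4:**
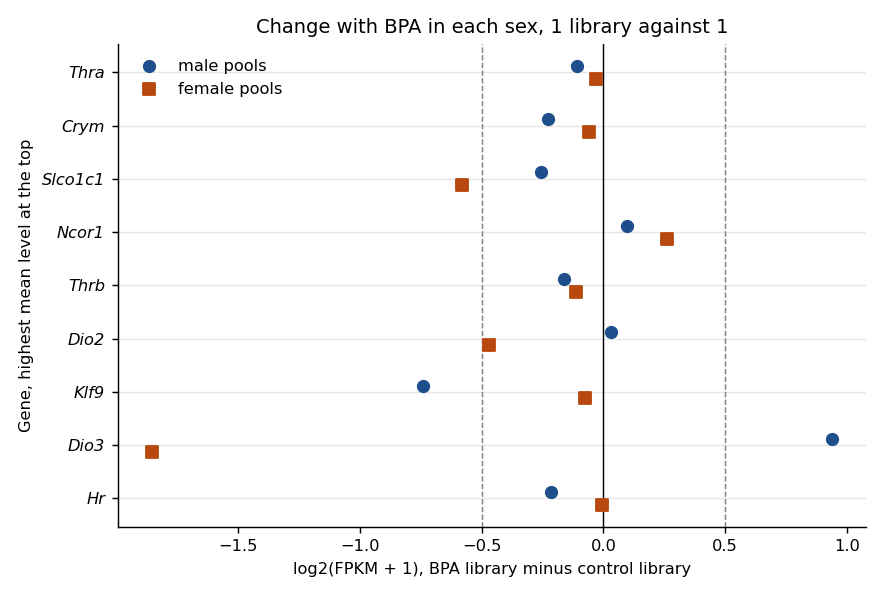
Difference of log2(FPKM + 1) between the BPA and the control library in males (circles) and females (squares) for the 9 genes, with dashed lines at -0.5 and 0.5. Dio3 lies at 0.94 in males and -1.86 in females, Klf9 is past the line in males (-0.74) and Slco1c1 in females (-0.58).

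The treatment was also compared over both sexes, 2 BPA libraries against 2 control libraries, with limma. Of the 9 genes 0 passed an adjusted p under 0.05, as did 0 of the 13542 rows tested (0.0%). At an unadjusted p under 0.05 there was 1 gene, Slco1c1, where 4.7% of all rows were. Slco1c1 was lower by 0.42 on the log2 scale (standard error 0.14, 95% interval -0.76 to -0.08, unadjusted p 0.0234, adjusted p 0.973 in limma), from a mean of 44.4 FPKM in control to 32.7 in BPA. The estimate for Klf9 was -0.41 (-0.92 to 0.10) and that for Ncor1 0.18 (-0.07 to 0.43), and for Dio3, whose sexes went apart, it was -0.46 with an interval from -2.0 to 1.09. Adjusted p values of the 9 genes in limma ran from 0.973 to 0.988. An exact permutation of 2 against 2 libraries cannot give a two-sided p below 0.33. The libraries did not overlap for 1 gene higher in BPA (Ncor1) and 2 lower (Slco1c1 and Klf9), against 13.8% and 19.9% of all rows, and 3 of 9 is near the 33.6% of all rows in either direction.

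Between the sexes, with the same 4 libraries regrouped and therefore not independent of the treatment comparison, 0 of the 9 genes passed an adjusted p under 0.05 in limma, and 0 were under 0.05 unadjusted, against 10.6% of all rows. Over all rows 1 passed (0.00738%), LOC100911498, whose gene ID is that of Xist in RefSeq, named after its value was seen. Thra, Crym and Hr were lower in both female than in both male libraries and Thrb was higher. That is 3 genes lower and 1 higher, against 22.5% and 19.8% of all rows, and 4 of 9 where 42.3% of all rows did not overlap. The estimate was -0.13 for Thra (-0.31 to 0.05), -0.15 for Crym (-0.37 to 0.08), -0.19 for Hr (-0.65 to 0.27) and 0.15 for Thrb (-0.26 to 0.55), each as the female minus the male mean of log2(FPKM + 1).

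Beyond the 9 genes, a list of 38 genes of the pathway was read, of which 32 were found by symbol or gene ID and 29 had a mean of at least 1 FPKM. Of the 29, 0 passed an adjusted p under 0.05 in limma between BPA and control and 0 between the sexes, and 1 (3.45%) and 7 (24.1%) were under an unadjusted 0.05, where 4.7% and 10.6% of all rows were. Past 0.5 on log2(FPKM + 1) there was 1 gene higher and 0 lower in the male BPA pool, and 2 higher and 2 lower in the female BPA pool, against 3.38% and 3.88% of all rows in males and 3.25% and 6.86% in females. The median difference of the 29 was 0.09 in males and -0.0017 in females.

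Among carriers and transporters, Ttr, which encodes transthyretin, the thyroxine carrier made by the choroid plexus, was at 256 FPKM in control males, 689.5 in BPA males, 3.96 in control females and 42.4 in BPA females. It belongs to the choroid plexus list as well and makes up most of its sum in 3 of the 4 pools (3.96 of 9.16 FPKM in control females), and other choroid plexus genes differed with it between the male pools, such as Clic6 (1.34 and 2.99 FPKM) and Sostdc1 (1.64 and 3.08 FPKM). In control females and BPA females Sostdc1 was at 0.21 and 0.76 FPKM, and Kl, the klotho gene of the plexus, at 0.07 and 0.03. The amino acid exchangers that also carry thyroid hormone, Slc7a5 and Slc7a8, stayed within 49.1 to 58.2 and 7.83 to 9.44 FPKM.

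Of the enzymes, Sult1a1, which encodes a phenol sulfotransferase, was at 0.88 FPKM in control males and 0.78 in BPA males. It was at 4.45 FPKM in control females and 2.06 in BPA females, highest where the meningeal markers were. In BPA females Sult1a1 was above both male pools, while the meningeal sum (46.1 FPKM) lay between those of control males (49.97) and BPA males (43.6). The part of meningeal cells in the Sult1a1 values was not tested. Secisbp2, which encodes the factor that lets selenoproteins such as the deiodinases be translated, was at 3.83 to 4.61 FPKM. The receptor partners Rxra, Rxrb and Rxrg had means of 6.16, 22.8 and 8.85 FPKM, and 0 of the 3 were past 0.5 in either sex. Of the corepressor complex, Gps2 was at 6.72 FPKM in control males against 8.56 in BPA males, and at 5.46 in control females against 9.61 in BPA females, with a limma estimate of 0.51 (standard error 0.16, unadjusted p 0.0154, adjusted p 0.973). Hdac3, Tbl1x and Tbl1xr1 were under 0.5 in both sexes, as were the coactivators Ncoa1, Ncoa2, Med1 and Crebbp.

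Of 14 genes known to respond to T3 in the developing rodent brain, 12 were found and 11 had a mean of at least 1 FPKM, and their median difference was 0.09 in males and 0.06 in females. Past 0.5 was 1 of the 11, Ntf3, which encodes neurotrophin-3, in females, where it went from 7.53 to 3.89 FPKM (-0.80), while in males it went from 3.19 to 4.57 FPKM (0.41). Reln, which encodes the migration signal reelin, was at 75.5 and 103.9 FPKM in control males and BPA males and at 76.5 and 79.0 in the female pools. Of the 11, 5 were higher in both BPA pools, 2 were lower in both and 4 went apart, counts for which no share of all rows is given. Reln, Dbp, Camk4, Sema7a and Bdnf were the 5, with differences in males and females of 0.41 and 0.08 for Dbp, a clock gene, 0.20 and 0.30 for Camk4, a neuronal kinase gene, 0.14 and 0.26 for Sema7a, a semaphorin gene, and 0.09 and 0.06 for Bdnf, a neurotrophin gene. Nrgn, the neurogranin gene of forebrain synapses (-0.25 and -0.23), and Rasd2 (-0.30 and -0.24) were the 2.

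**Figure D5:**
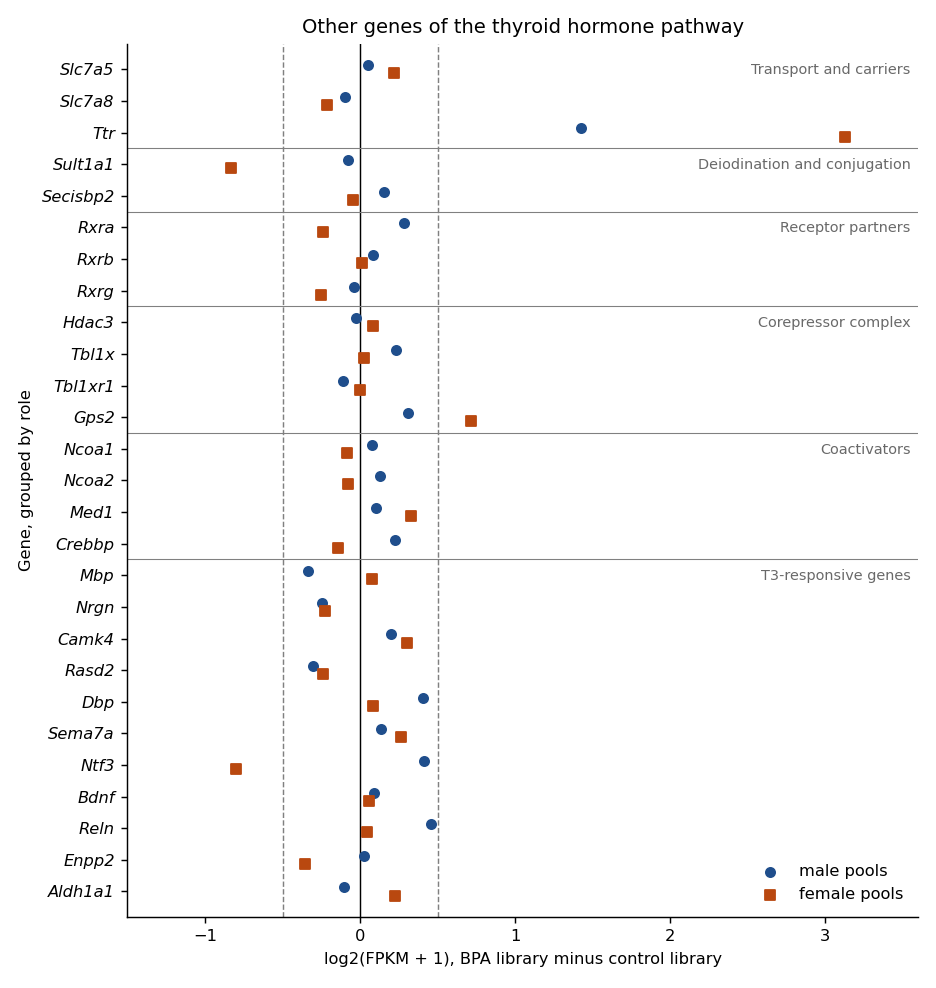
Difference of log2(FPKM + 1) between the BPA and the control library in males (circles) and females (squares) for 27 of the 29 further genes of the pathway, grouped by role, with dashed lines at -0.5 and 0.5. Ttr lies at 1.42 in males and 3.13 in females, Gps2 is past the line in females (0.72), and Ntf3 (-0.80) and Sult1a1 (-0.83) are below it in females.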

How the data were processed

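The authors deposited 1 FPKM value per gene and library, with 0.01 as the lowest value, and the length of each gene model. The submitters' processing notes name HISAT 0.1.6, Bowtie2 2.2.5, RSEM and the build rn6. Values and lengths give sums of 1023371 to 1035551 per library, and no counts were used. Files were joined on gene ID, which 13984 rows carry, and 3461 rows are new gene models of the authors. Differences were taken on log2(FPKM + 1), after rows with a mean under 1 FPKM had been dropped. Comparisons of 2 against 2 libraries, by treatment or by sex, were fitted in R 4.3.3 with limma 3.58.1 (a trended eBayes, p values adjusted over all rows by Benjamini-Hochberg, no covariate). Within a sex there is 1 library on each side and no test. Depth was taken from rows of 300 to 1500 bases with 0.05 to 0.6 FPKM, of which 96.3% to 98.7% lay within 0.15 of a whole fragment (30% if spread evenly). The limma fit and the depth estimate were tested on simulated data. Python 3.11.15, pandas 2.3.3, scipy 1.17.1 and matplotlib 3.10.9 were used.

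The 9 genes and the lists were chosen with earlier results of these data known. The alternatives were quantile normalization, other filters and pseudocounts, a covariate, no intensity trend, each library left out, and new gene models summed with rows of the same protein name (2436 rows into 869). TPM and the shares among rows with a gene ID and a mean of 1 to 10 FPKM were added after the data were seen. Named are the 9 genes, up to 4 pathway genes per role with a mean of at least 1 FPKM and the largest differences, and for the 2 genes of highest coefficient of variation the 3 rows closest in pattern. Others are marked, and 3 genes that the rule names are not reported here. Of the pathway list, Dio1, Sult1b1, Ncoa3, Ep300, Gbp3 and Flywch2 were not matched by symbol or gene ID and are not analysed here. Slco1a4 and Slc16a10 had means under 1 FPKM (0.49 and 0.22), as did Pcp2 (0.87). Over the 4 libraries the remaining marker lists summed to 1209.7 to 1354.5 FPKM (astrocyte and radial glia), 116 to 151 (interneuron), 6.47 to 9.07 (thalamus or hypothalamus), 90.0 to 131 (oligodendrocyte lineage), 28.6 to 37.7 (microglia) and 299 to 390.5 (red blood cell).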

Additional observations from a re-analysis of the deposited data

Results flagged for a closer look

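Dio3 stood out because its difference between BPA and control had opposite signs in the sexes and was large in both: 0.94 on log2(FPKM + 1) in males and -1.86 in females. Each value compares 1 pooled library with 1 other, and the difference between the sexes was not tested. The female value rests on 9 fragments in the BPA pool, and the male value on 43 in the control pool. In the combined comparison without the female BPA library the estimate for Dio3 was 0.63, and with all 4 libraries -0.46.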

How the results depend on the processing

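No paired analysis by replicate number was possible because the labels carry no replicate numbers. Sex as a covariate stands in for pairing the 2 libraries of a sex, and 0 of the 9 genes passed with it or in any other limma fit run, of treatment or of sex. The number of rows passing between BPA and control was 0 and became 2 with sex as a covariate (LOC689064, a hemoglobin gene, and the new gene model BGI_novel_G000521), 6 without the intensity trend and 0 to 3 when each library was left out (BGI_novel_G002167 without BPA males, and LOC100134871, a hemoglobin gene, BGI_novel_G002142 and BGI_novel_G002888 without control females), all named after their values were seen. Between the sexes it was 1 (LOC100911498) and became 21 with a mean of at least 5 FPKM, 23 with new gene models summed, 55 with treatment as a covariate and 1 to 2 when each library was left out (2 without control females, where Tsen34l1 was added). Rows past 0.5 numbered 981 in males, 240 with a mean of at least 5 FPKM, 1535 with a pseudocount of 0.1 and 544 with models summed. The corresponding female number was 1370, 446 with a mean of at least 5 FPKM and 891 with models summed. With the mean of at least 5 FPKM, 0 of the 9 genes in males and 1 in females were past 0.5, since Dio3 and Klf9 are then left out. With a pseudocount of 0.1 there were 3 in females, as Dio2 came to -0.57, and in TPM Dio2 was also at -0.57. The order of the 9 levels was the same in TPM and with models summed, and no new gene model carries the protein name of any of the 9.

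Signs turned for estimates close to 0 or resting on 1 library. Quantile normalization, which changed the median of all rows in females from -0.04 to 0.0019, turned Klf9 (0.056) and Hr (0.13) in females, left 6 of 9 genes below 0 there, made the Klf9 libraries overlap and those of Crym separate. TPM also separated those of Crym. The cause was not tested. With each library left out in turn, the treatment estimate ran from -0.15 to 0.015 for Thra and from -0.26 to 0.035 for Hr (above 0 without control males), and from -1.55 to 0.63 for Dio3 (above 0 without BPA females). It kept its sign from -0.60 to -0.23 for Slco1c1, from -0.60 to -0.22 for Klf9 and from 0.11 to 0.24 for Ncor1. Between the sexes the estimate ran from -0.32 to 0.42 for Klf9, from -0.076 to 0.50 for Slco1c1, from -0.080 to 0.18 for Ncor1, from -0.30 to 0.17 for Dio2 and from -1.71 to 0.15 for Dio3, and kept its sign from -0.19 to -0.078 for Thra, from -0.26 to -0.034 for Crym, from -0.30 to -0.081 for Hr and from 0.064 to 0.23 for Thrb. Depth limits Dio3 most, with 9 fragments in BPA females.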
